A study of Saccharomyces cerevisiae with 8 samples.

Results

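The 9 genes described here encode the small heat shock proteins, Hsp90 and the disaggregases of the yeast Saccharomyces cerevisiae, with a few further proteins named for heat shock. They are HSP12, HSP26, HSP42, HSP30, HSP31, HSP78, HSP104, HSP82 and HSC82, out of 5656 genes named by a probe set of their own on the array. Each was taken through the probe sets that the platform annotation assigns to that gene alone, which gave 9 probe sets, 1 a gene. All 9 lay above the 30th percentile of their array on all 8 arrays, so none passed the filter on low signals through 1 group only.

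The data are 8 Affymetrix YG_S98 arrays in 4 groups of 2, all from cultures in the rich medium YPD. A hem1 deletion strain, which makes heme only when fed 5-aminolevulinic acid (ALA), was grown for 6 h with 250 µM ALA, washed, and then kept for 16 h in 15 ml cultures either with ALA (heme replete) or without it (heme deplete). A wild type strain, written BY45742 in the labels, was grown for 6 h and then for 12 h in 15 ml in normoxia or in hypoxia, the latter in an anaerobic chamber. The labels give the hem1 cultures as duplicates, leave unsaid whether separate cultures gave the replicates of the wild type, and do not state the background of the hem1 strain. Whatever spread the p-values are set against is therefore that of these samples and may be technical. Total RNA of whole cultures was measured, so a change in the share of cells that express a gene and a change in RNA per cell cannot be told apart.

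Proteins unfold and clump together when cells are heated, starved or poisoned, and chaperones limit that damage. Small heat shock proteins bind unfolding clients and hold them in a state from which they can be recovered. Disaggregases of the Hsp100 family, working with Hsp70, pull proteins out of aggregates, and Hsp90 with its co-chaperones brings kinases, receptors and other clients to their active form. In yeast most of these genes are switched on by the heat shock factor Hsf1, by the general stress factors Msn2 and Msn4, or by both.

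Signals are MAS5 values on a linear scale, and n = 2 in every group. The arrays had median signals of 98.14 to 158.8 and 30th percentiles of 26.55 to 48.67. As deposited, the log2 signal of the median probe set shifted by 0.40 from cultures with ALA to those without, by 0.49 from normoxia to hypoxia, and by 0.23 from normoxia to the ALA-fed hem1 strain, so results are also given under other scalings. RNA quality, read as the ACT1 3′/5′ ratio, gave 1.40 and 1.49 for normoxia, 2.11 and 2.18 for hypoxia, 1.57 and 1.86 for cultures fed ALA, and 1.77 and 1.81 for those without it. Replicate 1 without ALA (3507) and replicate 2 in hypoxia (10740) had high signals of an 18S ribosomal RNA control, against 114.9 to 355.1 on the other arrays. The HEM1 probe set read 460 to 608 with ALA, 696 to 849 without, 683 to 707 in normoxia and 1413 to 1613 in hypoxia. No source used here says whether it lies inside the deletion, so it does not check the strain. The genes of the MATalpha mating type were above the 30th percentile on all 8 arrays, while of 5 genes of the opposite type STE2 and ASG7 were above it on 0 arrays, MFA1 on 6, MFA2 on 7 and BAR1 on 8.

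**Figure D1:**
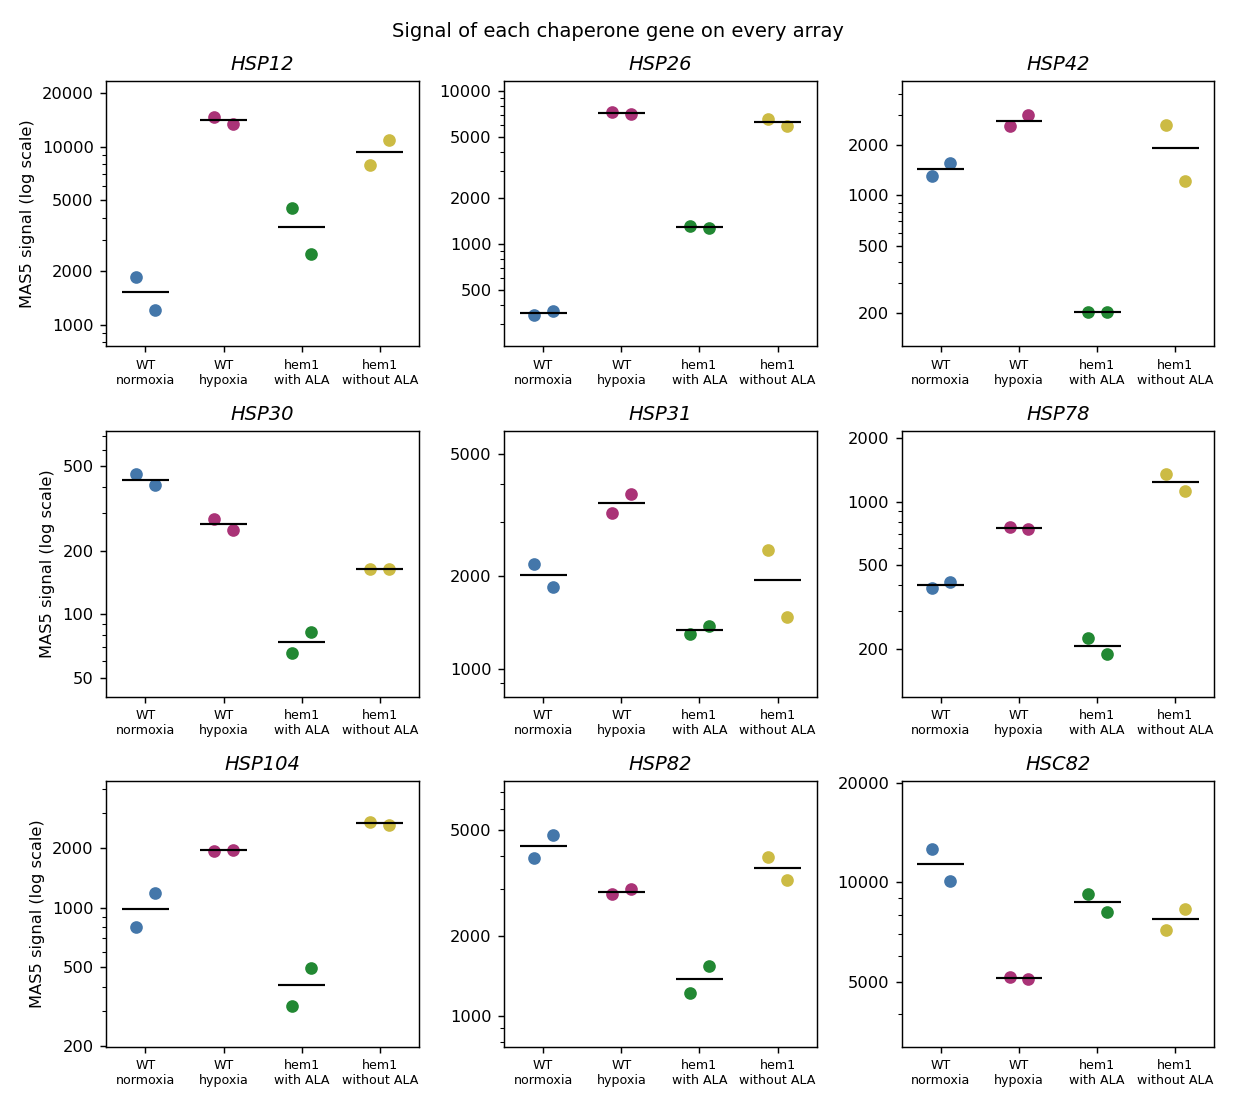
MAS5 signal (log axis) of the 9 genes on each of the 8 arrays, by group. Each point is 1 array and each line the mean of 2. For 6 of the 9 genes the green points, hem1 with ALA, are the lowest. HSP12 and HSP26 are lowest in normoxia and highest in hypoxia, and HSC82 is lowest in hypoxia.

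Heme depletion was followed by higher transcript levels of most of these genes. Without ALA, HSP42, HSP104, HSP78, HSP26, HSP12, HSP82 and HSP30 rose, by 8.87-fold for HSP42 down to 2.23-fold for HSP30. HSP31 and the constitutive Hsp90 gene HSC82 did not pass. In counts, 7 of 9 genes rose and none fell, where 30.2% of all 7081 probe sets tested rose and 19.7% fell. The median log2 difference was 1.46 over the 9 genes and 0.14 over all probe sets tested.

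Under hypoxia the 9 genes did not all move in the same direction. HSP26 rose 20.5-fold and HSP12 9.45-fold, HSP104, HSP42, HSP78 and HSP31 rose between 1.71-fold and 2.01-fold, and HSC82, HSP30 and HSP82 fell, by 2.20-fold, 1.62-fold and 1.48-fold. Thus 6 of 9 rose and 3 fell, against 33.3% higher and 22.5% lower among all probe sets tested. The median log2 difference was 0.89 over the 9 genes and 0.21 over all. Most of these calls depended on the scaling. With median centring only HSP12 and HSP26 rose, and with spike control scaling only HSC82 fell. The RNA quality ratio moved with hypoxia, as given above, and its part in these values was not tested.

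**Figure D2:**
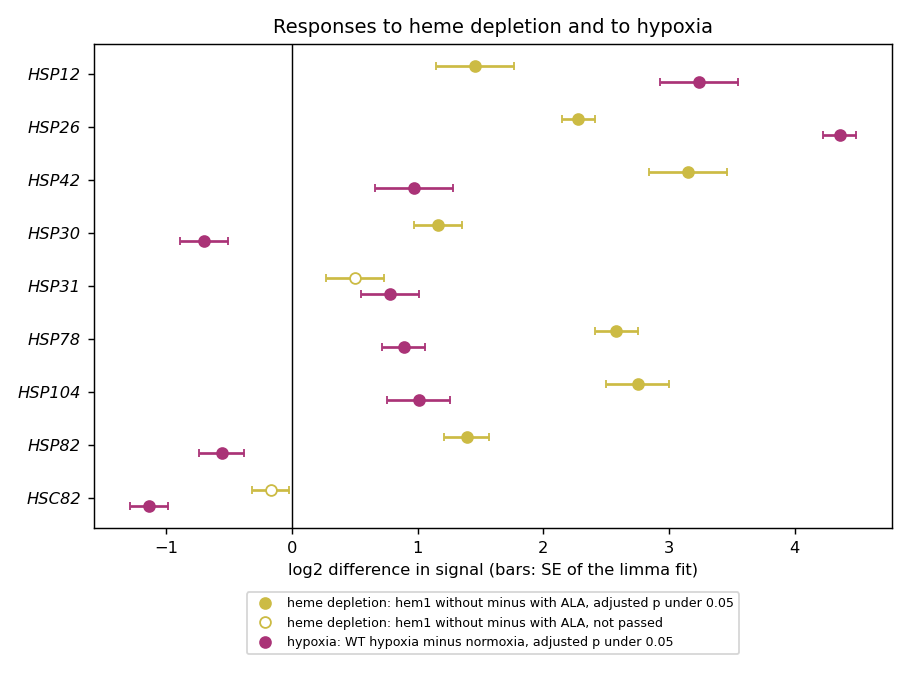
Log2 difference in signal of each gene in heme depletion (yellow) and in hypoxia (purple), with the SE of the limma fit (n = 2 a group). Filled points passed an adjusted p of 0.05. HSP12 and HSP26 lie farther right in hypoxia, the other genes except HSP31 farther right in heme depletion, and HSP30 and HSP82 lie on opposite sides of 0.

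HSP26 encodes a small heat shock protein with an alpha-crystallin domain, which forms large assemblies that take up unfolding proteins. Its signal was 1309 and 1265 with ALA and 6591 and 5948 without it, against 341 and 362 in normoxia and 7294 and 7135 under hypoxia. Every group was apart from the next, and replicates differed by at most 1.11-fold. The rise in heme depletion was 4.87-fold (log2 2.28, SE 0.13, adjusted p = 8.25e-06) and in hypoxia 20.5-fold (4.36, SE 0.13, adjusted p = 1.46e-07). With ALA the level was 3.66-fold that of normoxia (adjusted p = 0.000142), whereas the treated cultures did not differ past the threshold (log2 -0.20 without ALA against hypoxia, 95% interval -0.51 to 0.10). The treated cultures were thus near each other and the control cultures apart.

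HSP12 encodes a small, largely unfolded protein that associates with membranes and stabilises them under stress. It read 4549 and 2502 with ALA and 7893 and 10894 without it, against 1842 and 1205 in normoxia and 14667 and 13501 under hypoxia. The order of groups was that of HSP26, with no overlap, but the replicates were farther apart, by 1.82-fold with ALA and 1.53-fold in normoxia. It rose 2.75-fold in heme depletion (log2 1.46, SE 0.31, adjusted p = 0.00496) and 9.45-fold in hypoxia (3.24, SE 0.31, adjusted p = 6.69e-05). With ALA it was 2.26-fold above normoxia (adjusted p = 0.0287), which did not hold with median centring (0.076) or with only those groups in the fit (0.069). The call was also lost with the high-18S arrays left out. It was lost too without replicate 1 with ALA, replicate 1 or 2 in hypoxia, or replicate 2 in normoxia. Leaving out single arrays, the log2 difference ranged from 0.75 to 1.61.

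HSP42 encodes the other alpha-crystallin type small heat shock protein of the cytosol, which also works in unstressed cells and gathers misfolded proteins into deposits. Its signals were 201 and 203 with ALA and 2639 and 1218 without it, against 1305 and 1556 in normoxia and 2585 and 3006 under hypoxia. The cultures with ALA stood far below all others, and the arrays without ALA overlapped with those of both wild type groups. The rise in heme depletion was 8.87-fold (log2 3.15, SE 0.31, adjusted p = 0.000135), and that in hypoxia 1.96-fold (0.97, SE 0.31, adjusted p = 0.0287). The replicates without ALA were 2.17-fold apart, the higher being the array with the high 18S signal. With the high-18S arrays left out the rise was 2.59 on the log2 scale (adjusted p = 0.00129). The hypoxia call did not hold under median centring (0.48, adjusted p = 0.223) or without replicate 1 in hypoxia (0.0754), replicate 2 in hypoxia (0.137) or replicate 1 in normoxia (0.109).

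HSP104 encodes the disaggregase of the cytosol, needed for survival of severe heat and for the propagation of yeast prions. It read 318 and 496 with ALA and 2720 and 2613 without it, against 796 and 1186 in normoxia and 1940 and 1964 under hypoxia. No neighbouring groups overlapped. It rose 6.71-fold in heme depletion (log2 2.75, SE 0.25, adjusted p = 8.2e-05) and 2.01-fold in hypoxia (1.01, SE 0.25, adjusted p = 0.00887). The hypoxia call did not hold with median centring (0.52, adjusted p = 0.0821), with the high-18S arrays left out (0.0691) or without replicate 1 in normoxia (0.0526).

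HSP78 encodes the mitochondrial counterpart of Hsp104, which keeps matrix proteins soluble together with the mitochondrial Hsp70. Its level was 224 and 189 with ALA and 1351 and 1121 without it, against 390 and 415 in normoxia and 757 and 739 under hypoxia. The groups were in the same order as for HSP104, without overlap. The rise was 5.98-fold in heme depletion (log2 2.58, SE 0.17, adjusted p = 1.44e-05) and 1.86-fold in hypoxia (0.89, SE 0.17, adjusted p = 0.00241). Median centring ended the latter call (0.41, adjusted p = 0.0749). The genes of both disaggregases therefore rose under both treatments as the arrays were deposited, and both hypoxia calls were lost with that 1 scaling.

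HSP82 encodes the heat-inducible copy of Hsp90. Its signals were 1224 and 1541 with ALA and 3956 and 3254 without it, against 3931 and 4789 in normoxia and 2872 and 3011 under hypoxia. The cultures with ALA were lowest, and those without ALA overlapped with normoxia. It rose 2.61-fold in heme depletion (log2 1.39, SE 0.18, adjusted p = 0.000461) and fell 1.48-fold in hypoxia (-0.56, SE 0.18, adjusted p = 0.0262). The fall did not pass with quantile normalization (-0.45, adjusted p = 0.0558), with spike control scaling (-0.44, adjusted p = 0.171) or with the high-18S arrays left out (0.0782). It was also lost without replicate 1 in hypoxia (0.106), replicate 2 in hypoxia (0.0762) or replicate 2 in normoxia (0.14).

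HSC82 encodes the Hsp90 copy that is abundant without stress. It read 9257 and 8167 with ALA and 7181 and 8334 without it, against 12636 and 10107 in normoxia and 5187 and 5100 under hypoxia. Only the hypoxia arrays stood apart at the low end, and both hem1 groups overlapped. It fell 2.20-fold in hypoxia (log2 -1.14, SE 0.15, adjusted p = 0.000439), a call kept under all scalings and without any single array. In heme depletion the log2 difference was -0.17 (SE 0.15, 95% interval -0.52 to 0.18, adjusted p = 0.391), but with median centring it passed as a fall (-0.57, adjusted p = 0.0292) and with quantile normalization its sign turned (0.12, adjusted p = 0.465).

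HSP82 and HSC82 are near-identical copies, so their probe sets may each read some of the other gene's transcript. A further probe set is annotated to both and lies outside the 9. It read 5115 and 5920 with ALA and 6526 and 6314 without it, against 10897 and 10411 in normoxia and 3510 and 4024 under hypoxia. It fell 2.83-fold in hypoxia (log2 -1.50, SE 0.14, adjusted p = 5.41e-05) and did not pass in heme depletion (0.22, SE 0.14, adjusted p = 0.207). In the fall in hypoxia all 3 Hsp90 probe sets had the same sign, while in heme depletion HSP82 alone of them passed.

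HSP30 encodes a plasma membrane protein that restrains the proton pump Pma1. Its signals were 65.1 and 82.6 with ALA and 164 and 163 without it, against 459 and 407 in normoxia and 283 and 250 under hypoxia. No groups overlapped, and both wild type groups lay above both hem1 groups. It rose 2.23-fold in heme depletion (log2 1.16, SE 0.19, adjusted p = 0.00143) and fell 1.62-fold in hypoxia (-0.70, SE 0.19, adjusted p = 0.0126). The fall was lost with spike control scaling (-0.58, adjusted p = 0.088), with the high-18S arrays left out (0.099) and without replicate 2 in hypoxia (0.0762) or replicate 1 in normoxia (0.0656).

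HSP31 encodes a protein of the DJ-1 family that detoxifies methylglyoxal and has chaperone activity. It read 1301 and 1383 with ALA and 2430 and 1473 without it, against 2195 and 1849 in normoxia and 3220 and 3705 under hypoxia. Its arrays without ALA were 1.65-fold apart and overlapped with normoxia. It rose 1.71-fold in hypoxia (log2 0.78, SE 0.23, adjusted p = 0.0202), which did not hold under median centring (0.29, adjusted p = 0.338) or without replicate 1 in hypoxia (0.0524), replicate 2 in hypoxia (0.11) or replicate 2 in normoxia (0.0904). In heme depletion the log2 difference was 0.50 (SE 0.23, 95% interval -0.04 to 1.03, adjusted p = 0.106). Without replicate 2 of the cultures without ALA it passed (0.86, adjusted p = 0.0115).

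**Figure D3:**
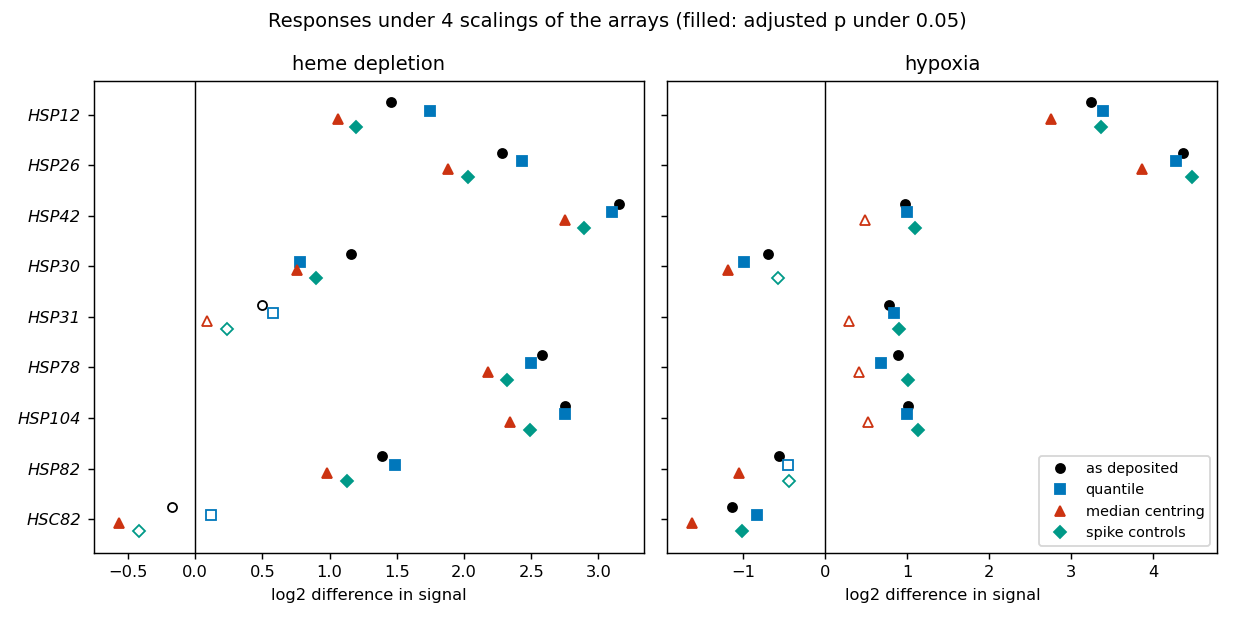
Log2 difference of each gene in heme depletion (left) and hypoxia (right) under 4 scalings of the arrays; filled symbols passed an adjusted p of 0.05. The 7 rises in heme depletion are filled under all 4, whereas with median centring the hypoxia rises of HSP42, HSP31, HSP78 and HSP104 are open.

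The control cultures, hem1 with ALA and wild type in normoxia, differed from each other. No array was taken before treatment, so levels at its start were not measured. Compared with normoxia, hem1 with ALA had lower levels of HSP42 (7.05-fold, log2 -2.82, SE 0.31, adjusted p = 0.000798), HSP30 (5.90-fold, adjusted p = 0.000147), HSP82 (3.16-fold, adjusted p = 0.000691), HSP104 (2.44-fold, adjusted p = 0.00909) and HSP78 (1.95-fold, adjusted p = 0.00588). HSP26 and HSP12 were higher, as given above, and HSP31 (-0.59, adjusted p = 0.106) and HSC82 (-0.38, adjusted p = 0.115) did not pass. Thus 5 of 9 were lower and 2 higher, where 7.92% of all probe sets tested were lower and 13.8% higher. From the lowest log2 difference upward, HSP42 ranked 11, HSP30 16 and HSP82 60 of 7081. The median over the 9 genes was -0.97, against 0.11 over all. With spike control scaling HSP78 (-0.59, adjusted p = 0.0719) and HSP104 (-0.91, adjusted p = 0.0516) did not pass, and HSP104 did not without replicate 1 with ALA (0.0529). With median centring HSP31 (-0.82, adjusted p = 0.044) and HSC82 (-0.61, adjusted p = 0.0458) passed as lower, and HSP31 passed without replicate 1 (0.0366) or replicate 2 (0.0355) of the cultures without ALA, while the HSC82 difference was 0.00 with spike control scaling. Strain, growth time (16 h against 12 h) and the 250 µM ALA given to the hem1 cultures are confounded here, and the RNA quality ratio was also higher with ALA than in normoxia. These values share the arrays with ALA with the heme depletion comparison, so a low level with ALA enters both.

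The treated cultures were compared in the same way. Without ALA against hypoxia, HSP78 was 1.65-fold higher (adjusted p = 0.0255) and HSC82 higher by 0.59 on the log2 scale (0.0374), HSP31 was 1.83-fold lower (0.0399) and HSP30 1.63-fold lower (0.040). The other 5 did not pass, with log2 differences from -0.64 for HSP42 to 0.45 for HSP104. All probe sets tested were called higher in 8.46% of cases and lower in 6.55%. None of these 4 calls held with the high-18S arrays left out, where the adjusted p was 0.239, 0.171, 0.0523 and 0.196 in that order, nor with spike control scaling. They were lost too without replicate 1 in hypoxia (adjusted p = 0.114, 0.153, 0.13 and 0.206) or replicate 2 in hypoxia (0.103, 0.135, 0.179 and 0.0966). Among the hem1 arrays, leaving out replicate 1 without ALA ended the calls for HSP78 (0.116), HSC82 (0.0622) and HSP30 (0.115), and replicate 2 without ALA those for HSC82 (0.17), HSP31 (0.16) and HSP30 (0.13). Those for HSC82 and HSP31 also ended without replicate 1 with ALA (0.0505 and 0.0643) or replicate 2 with ALA (0.0503 and 0.0641). HSP42 passed as lower (-1.19, adjusted p = 0.0124) without replicate 1 of the cultures without ALA, so which of these genes differ rests on single arrays.

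**Figure D4:**
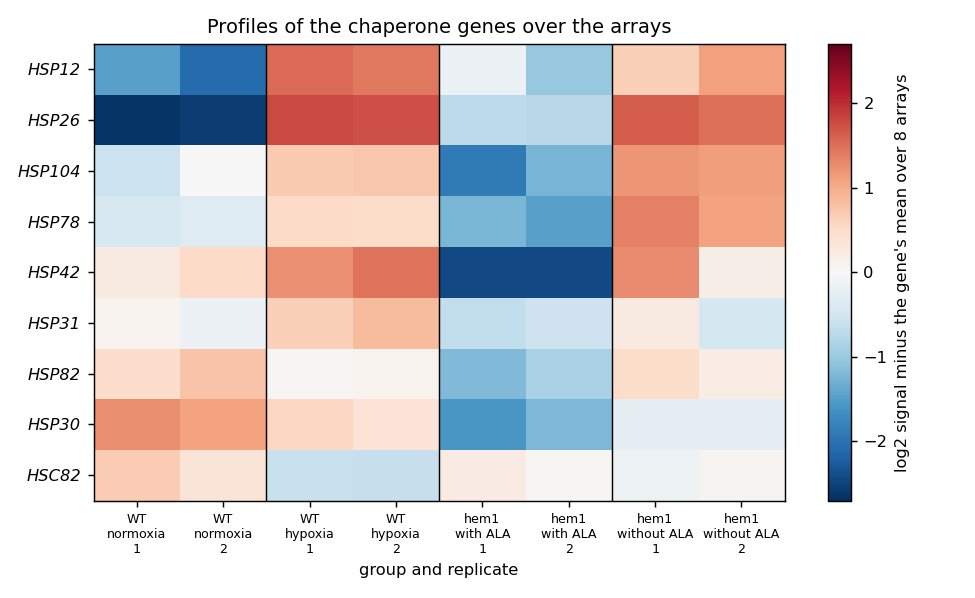
Log2 signal of each gene minus its own mean over the 8 arrays, by group and replicate (red above, blue below the mean). HSP12 and HSP26 are lowest in normoxia, the genes from HSP104 to HSP30 are lowest in hem1 with ALA, and HSC82 is lowest in hypoxia.

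A test of the difference of the responses, in which strain and time are confounded with treatment, separated most of the genes. The log2 response was higher in heme depletion than in hypoxia for HSP42 (2.18, SE 0.45, adjusted p = 0.0137), HSP82 (1.95, SE 0.25, adjusted p = 0.00267), HSP30 (1.86, SE 0.27, adjusted p = 0.00419), HSP104 (1.74, SE 0.35, adjusted p = 0.0133), HSP78 (1.69, SE 0.24, adjusted p = 0.00415) and HSC82 (0.97, SE 0.22, adjusted p = 0.0204). It was lower for HSP26 (-2.08, SE 0.19, adjusted p = 0.000787) and HSP12 (-1.78, SE 0.44, adjusted p = 0.0269), and HSP31 did not pass (-0.28, 95% interval -1.03 to 0.47, adjusted p = 0.59). That is 6 higher and 2 lower of 9, where 8.46% and 9.29% of all probe sets were called. With the high-18S arrays left out the calls for HSP104 (adjusted p = 0.1), HSC82 (0.0825) and HSP12 (0.157) were lost, as were those for HSP104 (0.0662) and HSC82 (0.118) with spike control scaling. Without replicate 1 in hypoxia HSP42 (0.0646), HSP104 (0.0575), HSC82 (0.0682) and HSP12 (0.0992) did not pass. HSP12 was also lost without replicate 2 in hypoxia (0.0711), replicate 2 in normoxia (0.0619), replicate 1 with ALA (0.066) or replicate 1 without ALA (0.0722). HSC82 was also lost without replicate 2 in hypoxia (0.0579), replicate 1 in normoxia (0.0507), replicate 2 with ALA (0.0652) or replicate 2 without ALA (0.0578). For HSP26, HSP82, HSP30 and HSP78 the call held under every alternative scaling and without any single array.

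Over the 8 arrays the profiles of some genes ran close together, given here as a description since arrays of a group share their culture conditions. Among 36 pairs, Pearson's r of the log2 signals was highest for HSP12 with HSP26 and for HSP78 with HSP104 (0.96 each), then HSP42 with HSP104 (0.88) and HSP30 with HSP82 (0.87). HSP82 and HSC82 had an r of 0.07. HSC82 ran against HSP26 (-0.86) and HSP12 (-0.83). Among 5274 other genes, those with the most similar profile were RIM101, ASK10 and EGH1 for HSP12, PHM8, PBI1 and AUS1 for HSP26, CAK1, YGR237C and BUG1 for HSP42, RCN2, ROQ1 and TPK2 for HSP78, and DFP1, HRD3 and SHC1 for HSP104. They were MRA1, ALG9 and MDV1 for HSP30, GRX1, MTQ2 and HEM1 for HSP31, AIM9, YPF1 and UBX5 for HSP82, and OST4, RPT1 and PMS1 for HSC82. These r values ranged from 0.944 (HEM1 with HSP31) to 0.997 (PHM8 with HSP26). They compare the shape of profiles and not the size of changes. In heme depletion the log2 difference was 0.41 for CAK1 against 3.15 for HSP42, and 4.9 for PBI1 against 2.28 for HSP26. HEM1 is the gene deleted in the hem1 strain, and whether its probe set lies inside the deletion is not known, as given above.

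The 12 co-chaperones of Hsp90 did not move as one. In heme depletion 4 rose, 1 fell and 7 did not pass, and in hypoxia 2 rose, 5 fell and 5 did not pass. Of all probe sets tested, 30.2% rose and 19.7% fell in heme depletion, and 33.3% rose and 22.5% fell in hypoxia. The counts of this list and of the lists below are to be read beside those shares. AHA1, which stimulates the ATPase of Hsp90, rose 2.78-fold without ALA (634 ± 26.2 to 1760 ± 27.2, SD, adjusted p = 0.000101), and STI1, which links Hsp70 to Hsp90, rose 2.02-fold (adjusted p = 0.00115). SBA1, the p23 protein of yeast, fell under both treatments, without ALA by 0.58 on the log2 scale (adjusted p = 0.0118) and in hypoxia by 1.46 (adjusted p = 9.33e-05). In hypoxia CPR6, a cyclophilin, fell 1.78-fold (adjusted p = 0.000702), while the phosphatase gene PPT1 rose 1.75-fold (0.00848) and SGT1 1.52-fold (0.0233). Without ALA CPR6 rose 1.53-fold (adjusted p = 0.00416), which did not hold with median centring (0.218) or spike control scaling (0.116). The rises of PPT1 and SGT1 were lost with median centring (adjusted p = 0.244 and 0.635), and that of SGT1 also with quantile normalization (0.423). The median log2 difference was 0.24 in heme depletion and -0.38 in hypoxia, and with median centring -0.16 and -0.87. With that scaling 2 rose and 2 fell in heme depletion, and 6 fell and none rose in hypoxia, while with spike control scaling the counts were 2 and 1, and in hypoxia 2 and 3.

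Of 10 Hsp70 system genes that work with Hsp104 or Hsp70, 5 rose and 1 fell in heme depletion, and 3 rose and 4 fell in hypoxia. Among all probe sets tested 30.2% rose and 19.7% fell in heme depletion, and 33.3% and 22.5% in hypoxia. The inducible Hsp70 genes SSA3 and SSA4 rose 33.5-fold and 8.97-fold without ALA (adjusted p = 1.25e-06 and 2.6e-06), and by 4.17 and 1.92 on the log2 scale in hypoxia (7.24e-07 and 1.89e-05). SSA2, for a constitutive Hsp70, fell 2.27-fold in hypoxia (28531 ± 1738 to 12572 ± 768, adjusted p = 0.000125). SNL1, for a nucleotide exchange factor of Hsp70, fell 5.06-fold without ALA (adjusted p = 0.000152) and 3.71-fold in hypoxia (0.000301). SSA3 and SSA4 therefore rose under both treatments, as HSP104 did with the arrays as deposited. With median centring the hypoxia calls of SSA3 and SSA4 held (adjusted p = 2.78e-06 and 0.000107). That of HSP104 was lost there and when some arrays were left out, as given above. With median centring 4 of the 10 rose and 3 fell in heme depletion, and 3 rose and 7 fell in hypoxia. Among 4 genes that sort or mark misfolded proteins, BTN2, a sorting factor that acts with Hsp42, rose 7.51-fold without ALA (adjusted p = 2.29e-05), and the polyubiquitin gene UBI4 rose 3.56-fold (2.36e-05). In hypoxia UBI4 rose 1.65-fold (adjusted p = 0.00203; 0.158 with median centring), CUR1, a relative of BTN2, fell 2.22-fold (0.00307), and BTN2 did not pass (-0.15, adjusted p = 0.566) unless the arrays were median centred, when it fell (-0.64, adjusted p = 0.0204).

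Among 9 mitochondrial chaperones and proteases, which include the partners of Hsp78, 2 rose and 1 fell in heme depletion, and 1 rose and 1 fell in hypoxia. These counts lay below the shares of all probe sets tested, 30.2% and 19.7% in heme depletion and 33.3% and 22.5% in hypoxia. ECM10, a copy of the mitochondrial Hsp70 gene, was at or below the 30th percentile in both control groups, and rose at least 3.53-fold and at least 2.56-fold. MDJ1, for the J-protein of the matrix, rose 1.95-fold without ALA (adjusted p = 0.00557; 0.0567 with median centring). MGE1, for the exchange factor of the mitochondrial Hsp70, fell 1.94-fold (0.007) and in hypoxia 1.73-fold (0.0137; 0.0778 with spike control scaling). With median centring the falls numbered 5 and 6 of 9. MRH1 and YRO2, for membrane proteins related to Hsp30, moved in opposite directions: YRO2 rose 3.68-fold and 3.45-fold (adjusted p = 0.000635 and 0.000603), and MRH1 fell 1.88-fold and 2.56-fold (0.00048 and 4.26e-05). The copies of HSP31, namely HSP32, HSP33 and SNO4, were not tested here.

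**Figure D5:**
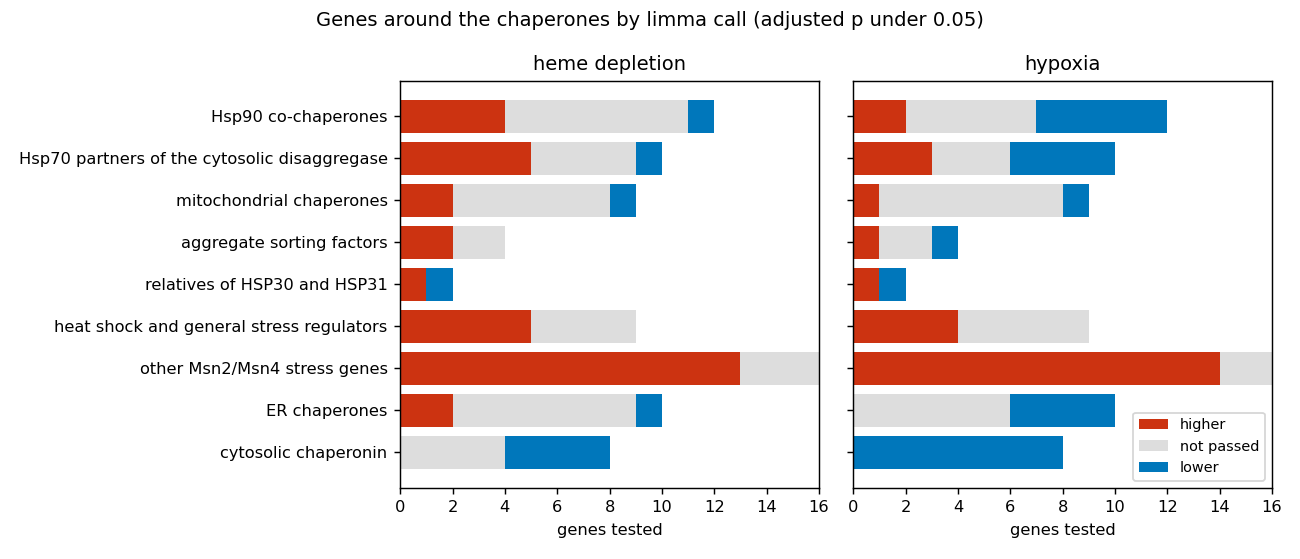
Number of genes tested in each of 9 lists that were called higher (red), lower (blue) or did not pass (grey) in heme depletion and hypoxia, by limma at an adjusted p of 0.05. The stress genes are mostly red in both panels, and the 8 chaperonin genes are all blue in hypoxia.

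Of 9 genes for regulators of the heat shock and general stress response, 5 rose in heme depletion and 4 in hypoxia, and none fell. Among all probe sets tested 30.2% rose in heme depletion and 33.3% in hypoxia. HSF1, for the heat shock factor, rose 2.34-fold without ALA (155 ± 12 to 366 ± 80, adjusted p = 0.00239) and 5.13-fold in hypoxia (81.8 ± 16.7 to 416 ± 19.7, adjusted p = 6.17e-05). MSN4, for a general stress factor, rose 2.46-fold without ALA (adjusted p = 0.000889) and did not pass in hypoxia (0.46, adjusted p = 0.0714) except with spike control scaling (0.58, adjusted p = 0.042). RIM15, for a kinase active when nutrients run out, rose 2.72-fold in hypoxia (0.000233) and 1.95-fold without ALA (0.00244). Under the other 3 scalings 3 of these genes rose in heme depletion, and in hypoxia 2 with quantile normalization or median centring and 6 with spike control scaling. With median centring 1 fell in each. Among 16 further stress genes known as targets of Msn2 and Msn4, 13 rose without ALA and 14 in hypoxia, with median log2 differences of 1.59 and 1.77. MSC1 rose 9.54-fold and DCS2 8.31-fold without ALA (adjusted p = 3.13e-06 and 6.96e-06), and in hypoxia DDR2 rose 16.1-fold and DCS2 12.7-fold (7.28e-07 and 1.62e-06). Under the other scalings 11 to 13 and 10 to 14 of the 16 rose. The list was chosen with earlier results of the same arrays known, so its direction is not independent evidence.

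Outside the stress-induced set, the lists of the cytosolic chaperonin and of the endoplasmic reticulum had falls and no rises in hypoxia. Among all probe sets tested 22.5% fell in hypoxia and 19.7% in heme depletion. All 8 genes of the cytosolic chaperonin, which folds actin and tubulin, fell in hypoxia (median log2 difference -1.01), and 4 of 8 fell in heme depletion (-0.54). CCT5 fell 2.20-fold without ALA and 3.27-fold in hypoxia (adjusted p = 0.0042 and 0.000431), and TCP1 1.87-fold in each (0.0012 and 0.000903). Without ALA 7 of 8 fell with median centring or spike control scaling, and in hypoxia 6 of 8 with the latter. Of 10 chaperones and folding enzymes of the endoplasmic reticulum, 4 fell and none rose in hypoxia, among them KAR2, for the Hsp70 of that compartment (7231 ± 424 to 1830 ± 61.2, 3.95-fold, adjusted p = 1.56e-05), and FPR2, for a prolyl isomerase (2.51-fold, 0.00019). Without ALA LHS1 (1.49-fold, adjusted p = 0.0166) and CNE1 (2.47-fold, 0.0341) rose and SIL1 fell (1.44-fold, 0.0498). Those counts lay below the 30.2% higher and 19.7% lower among all probe sets tested, and under each of the other 3 scalings none rose.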

How the data were processed

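Total RNA of 8 samples was hybridised to 1 Affymetrix array each. Linear signal intensities were deposited; the submitters' processing notes name MAS5 for them (version and settings not given in the sources used here). Means trimmed by 2% at each end ran from 500.42 to 500.58 over the arrays, so the arrays had been scaled to a common mean. Detection calls and probe-level data were not used here, and the number of arrays limits the precision.

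Of 9275 probe sets other than 60 controls, 6504 had 1 gene in the platform annotation, 328 several and 2443 none. Names were updated through RefSeq R64 by gene ID, all 6504 matching. Tests covered the 7081 probe sets whose signal passed the array's 30th percentile at least 2 times among 8 arrays. The model, 1 mean per group over all 8 arrays on the log2 scale, used limma 3.58.1 (R 4.3.3) and an intensity trend (4 residual and 4.36 prior degrees of freedom). Tests were two-sided, with Benjamini-Hochberg adjustment over the 7081 probe sets and a threshold of 0.05. Adjusted p-values come from this fit unless an alternative is named beside them, and intervals are 95%. Where a group lay at or below its 30th percentiles, the fold is a lower bound against the higher of percentile and signal. The fit was run on simulated arrays in which only the cultures without ALA were changed. The groups here differed more widely, so that run does not check the calls given here.

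The 9 genes were named whatever their values. For 9 lists of 83 related genes, counts are given with up to 2 called genes per direction, and for each of the 9 genes the 3 genes of most similar profile. Genes other than the 9 are represented by their brightest probe set. The values of BTN2 and MSN4 in hypoxia, which did not pass, were added after they were seen. So were those of CPR6 and RIM15 in heme depletion, which passed. The genes and lists were chosen with earlier results of these data known. Alternatives were quantile normalization, median centring, scaling on 9 spike control probe sets, no filter, a floor at the 30th percentile, no intensity trend, fits of 2 groups, and fits without single arrays or without both arrays of high 18S signal. No sequences are shown.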

Additional observations from a re-analysis of the deposited data

Results flagged for a closer look

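For 8 of the 9 genes the response to heme depletion differed from the response to hypoxia by the test of that difference in limma. Among all probe sets tested 8.46% were called higher and 9.29% lower. The calls for HSP104 and HSC82 were lost with spike control scaling, and those for HSP12, HSP42, HSP104 and HSC82 depended on single arrays, as given above. The log2 response to heme depletion minus that to hypoxia was 2.18 for HSP42, 1.95 for HSP82, 1.86 for HSP30, 1.74 for HSP104, 1.69 for HSP78 and 0.97 for HSC82. It was -2.08 for HSP26 and -1.78 for HSP12. Each treatment had its own strain and duration, so strain and time cannot be told apart from treatment in these values. Each value also equals the difference between the treated cultures minus that between the control cultures. It thus restates in part the levels of the control cultures given above.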

How the results depend on the processing

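Of 144 values of single genes in heme depletion under the alternatives, 141 kept their direction and their side of the threshold, 122 of 144 did in hypoxia, 117 of 135 for the difference of the responses, 129 of 144 for the control cultures and 109 of 144 for the treated cultures. Only the larger changes in counts are listed next. Smaller ones are left out, such as 7 lower in the control cultures with median centring against 5 in the main fit. Calls over all probe sets moved too. In hypoxia 1414 rose with median centring against 2358 in the main fit. Of the calls in the control cultures 91.8% were higher with spike control scaling against 63.6%. With median centring 1 gene fell in heme depletion, 2 rose in hypoxia, 1 was higher in the control cultures and 0 were higher in the treated cultures. With spike control scaling 1 fell in hypoxia, 3 were lower in the control cultures, and 0 were higher and 0 lower in the treated cultures. With quantile normalization 1 was lower in the treated cultures. With no filter on low signals, or with no intensity trend, 1 was higher and 1 lower there. With only the 2 groups compared in the fit, 1 was higher in the control cultures and 1 lower in the treated cultures. With the high-18S arrays left out 1 fell in hypoxia, 1 had a lower response in heme depletion than in hypoxia, 1 was higher in the control cultures, and 0 were higher and 0 lower in the treated cultures. Leaving out single arrays, the counts ranged from 7 to 8 rises and no falls in heme depletion, 4 to 6 rises and 1 to 3 falls in hypoxia, 3 to 6 higher and 1 to 2 lower differences of the responses, 1 to 2 higher and 4 to 6 lower in the control cultures, and 0 to 2 of each in the treated cultures. Where a group is left with 1 array, that array is assumed to vary like the other groups. The sign of HSC82 turned in heme depletion with quantile normalization (0.12) and in the control cultures with spike control scaling (0.00), and that of HSP31 in the difference of the responses when single arrays were left out (-0.64 to 0.08, the latter without replicate 2 of the cultures without ALA). None of these 3 differences had passed. Apart from the changes of scale and of arrays, the causes of these shifts were not tested. No other probe set belonged to 1 of the 9 genes alone, so that alternative was not run. No paired analysis was possible because the labels carry no replicate numbers that groups share.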
